A study of Arabidopsis thaliana with 12 samples.

Results

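Among the differential m6A peaks between a dcl1 mutant and wild-type Arabidopsis thaliana, 211 of 3117 were annotated by the authors to an exon or to a 5' UTR, and these peaks are described here. They were taken by the region name in the authors' deposited peak table: 186 carried the name Exon and 25 the name 5' UTR, while the other 2906 carried the name 3' UTR. The plants were Col-0 wild type and a dcl1 mutant of the same ecotype, whose allele the labels do not name, 20 days old and untreated. The labels give leaf as the source, whereas seedlings are named in the extraction protocol and in the design text. Each genotype had 3 biological replicates of an input library (poly(A) RNA before immunoprecipitation) and 3 of an m6A immunoprecipitate.

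N6-methyladenosine (m6A) is a methyl mark set on adenosines of messenger RNA by a nuclear writer complex that includes MTA, MTB, FIP37, VIR and HAKAI in Arabidopsis. Demethylases of the ALKBH family can remove it, and YTH-domain proteins such as ECT2 bind it. In plant mRNA the mark lies mainly around the stop codon and in the 3' UTR, so peaks named for coding exons, 5' UTRs or noncoding transcripts are the less usual class. DCL1 is a nuclear Dicer-like ribonuclease that processes primary microRNA transcripts, which are themselves capped and polyadenylated, into mature microRNAs.

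DCL1 itself had 5.08, 4.53 and 6.0 FPKM (fragments per transcript length and sequencing total) in the wild-type input libraries and 0.604, 0.406 and 0.632 FPKM in the dcl1 input libraries. The groups were far apart, and the fall on the log2(FPKM + 1) scale was -2.0 ± 0.12 (SE; limma, adjusted p = 0.000107, n = 3 per genotype). Across genes, which are not independent replicates, pairs of input libraries within a genotype had r between 0.985 and 0.993, and pairs across genotypes between 0.925 and 0.959. The leaf markers RBCS1A and CAB1 had at least 15241 and 11476 FPKM in every input library, and of 7 root markers IRT1, CASP1, PLT2 and COBL9 reached at most 0.422 FPKM. The other 3 root markers were expressed: SHR lay between 8.18 and 11.8 FPKM, PHO1 between 5.87 and 8.41 FPKM, and NRT2.1 had 0.740, 0.613 and 0.783 FPKM in wild type and 3.05, 1.20 and 4.13 FPKM in dcl1 (log2 change 1.06, limma adjusted p = 0.0281). The part of root tissue in the results was not tested. These were bulk samples, in which fewer cells of a type and less RNA per cell cannot be told apart.

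The exon peaks leaned towards lower m6A in dcl1, whereas the 3' UTR peaks leaned towards higher. Of the 211 peaks, 98 were higher and 113 lower in dcl1 by the authors' deposited log2 change, which is 46.4% higher, beside 60.3% of all 3117 peaks. The 186 exon peaks split into 81 higher and 105 lower, with a median log2 change of -0.21. The 25 peaks in 5' UTRs split the other way, 17 higher and 8 lower, with a median of 0.39. Among 3' UTR peaks 61.3% were higher, with a median of 0.18. The deposited table holds no values of single immunoprecipitate libraries, and peaks are not replicates of a genotype, so these shares are descriptions without a test.

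Changes in these peaks were larger in size but passed the authors' false discovery rate (FDR) less often. The median size of the log2 change, whichever the direction, was 0.51 outside the 3' UTR and 0.29 in it. At least a 2-fold change was deposited for 32 of the 211 peaks (15.2%), 16 in each direction, beside 4.04% of all peaks. A deposited FDR under 0.05 was reached by 132 of the 211 (62.6%), 58 higher and 74 lower, beside 79.6% of all peaks. Both shares varied with the expression of the host, as given below. Every peak of the table had a deposited p-value under 0.05, the largest being 0.0490, so peaks that did not differ are not part of it. In these 211 peaks the log2 change ran from -3.32 to 4.07.

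The hosts of these peaks were less expressed than those of 3' UTR peaks. A host here is the listed gene that shares most bases with the peak. The median host level, as mean FPKM over the 6 input libraries, was 4.46, beside 13.4 for 3' UTR peaks and 5.12 for all 24730 listed genes. Size of change went with host level: the median size of the log2 change was 0.84 in the 39 peaks of hosts under 1 FPKM, 0.62 in 72 peaks of hosts from 1 to 5 FPKM, 0.39 in 69 peaks from 5 to 20 FPKM and 0.22 in the 29 peaks of hosts at 20 FPKM and over. In 3' UTR peaks the same classes gave 1.35, 0.48, 0.29 and 0.22. Only peaks with a deposited p-value under 0.05 are listed, so small changes in weakly expressed hosts may be missing. How far this selection shapes the sizes was not tested. In the highest class the size of change was alike, whereas the direction was not: 10 of 29 peaks outside the 3' UTR were higher in dcl1 (34.5%) beside 74.6% of 1083 in 3' UTRs. In the 3 lower classes the shares that were higher lay between 43.5% and 52.8% for these peaks and between 48.6% and 54.4% for 3' UTR peaks. From the lowest to the highest class, a deposited FDR under 0.05 was reached by 43.6%, 63.9%, 66.7% and 75.9% of these peaks. For 3' UTR peaks these shares were 45.9%, 59.4%, 78.5% and 93.7%. Changes of at least 2-fold made up 41.0%, 11.1%, 5.80% and 6.90% of these peaks and 59.5%, 5.19%, 2.38% and 1.57% of 3' UTR peaks.

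**Figure D1:**
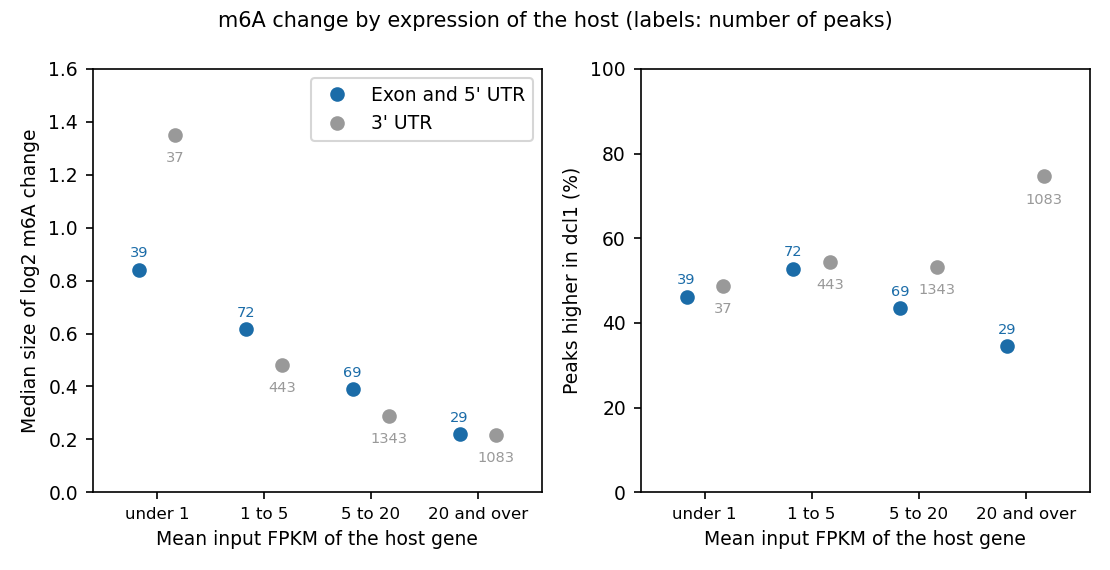
The median size of the deposited log2 m6A change (left) and the percentage of peaks higher in dcl1 (right) are plotted by the mean input FPKM of the host gene, for Exon and 5' UTR peaks (blue) and 3' UTR peaks (grey), with the number of peaks beside each point. Size falls with expression in both sets, from 0.84 to 0.22 and from 1.35 to 0.22, and the directions part in hosts at 20 FPKM and over, at 34.5% and 74.6%. All peaks shown had a deposited p-value under 0.05, so small changes in weakly expressed hosts may be missing.

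Peaks outside the 3' UTR were narrower. Their median length was 328 bases, with an interquartile range of 209 to 483.5 bases, against 419 bases for 3' UTR peaks. Exon peaks had a median of 330 bases and 5' UTR peaks of 299 bases, the latter spanning 150 to 826 bases. The narrowest were 88 bases over AT1G35612.1, a pseudogene, 89 bases in AT5G66740, which codes for a protein of unknown function, and 90 bases over the long noncoding RNA AT1G76878. The widest were 3669 bases over the long noncoding RNA AT1G69587, 3297 bases over the long noncoding RNA AT4G37553 and 2089 bases in the protein-coding gene AT4G31980. Peaks over 1 kb made up 4.74% of the set and 4.20% of 3' UTR peaks. The median length was 330 bases for peaks that were higher and 327 bases for those that were lower. Lengths here are genomic spans from the start to the end of a peak, so any introns within a peak are counted.

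**Figure D2:**
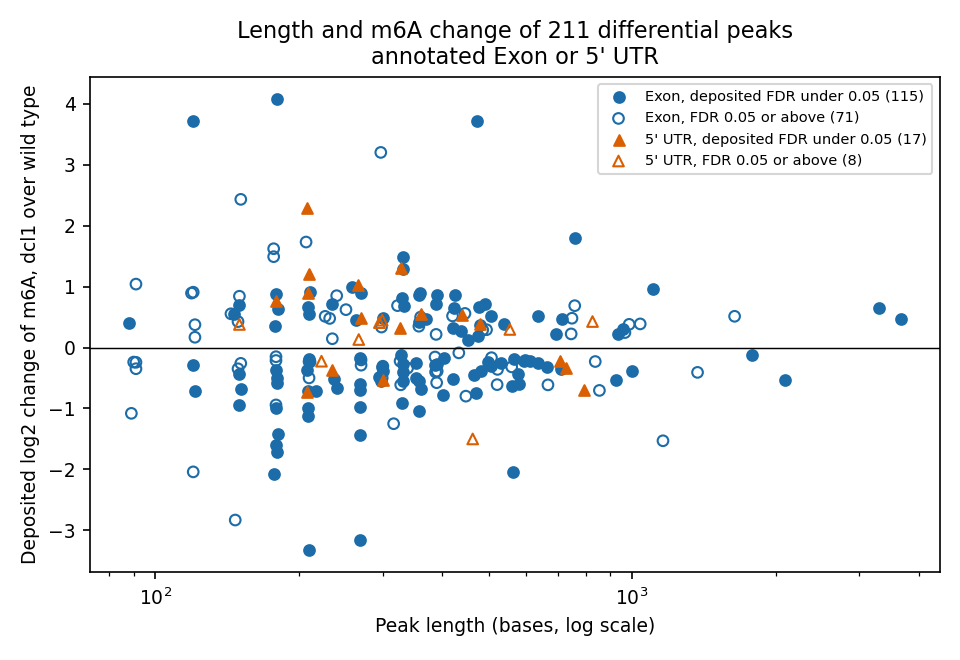
Each point is 1 of the 211 peaks, placed by its length in bases (log axis) and its deposited log2 m6A change of dcl1 over wild type; circles are Exon peaks, triangles 5' UTR peaks, and filled symbols have a deposited FDR under 0.05. Changes beyond 3 on the log2 scale occur only in Exon peaks, all of them under 500 bases long, and the widest peak, 3669 bases, has a log2 change of 0.47.

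Many peaks named Exon still lay at the 3' end of their host. Of the 184 exon peaks with a host, 87 reached the last base of the gene and 100 lay within 100 bases of it. Of their mid-points 98 fell in the last 25% of the gene, 22 in the first 25% and 64 between. Being at the 3' end was not restricted to noncoding hosts, since 65 of 140 exon peaks in protein-coding hosts and 22 of 44 in other hosts reached it. Of the 3' UTR peaks, 80.5% reached the 3' end of the host. By the deposited exon number, 93 exon peaks lay in the last or the single exon of a transcript, 30 in the first of several and 63 in a middle exon. This number did not always match the place in the host, since 28 of the 63 middle-exon peaks reached its 3' end. First-exon peaks were higher in 19 of 30 cases and middle-exon peaks in 24 of 63. The peaks in 5' UTRs lay where the name puts them in most cases: 16 of 25 reached the first base of the host and 20 had their mid-point in its first 25%.

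**Figure D3:**
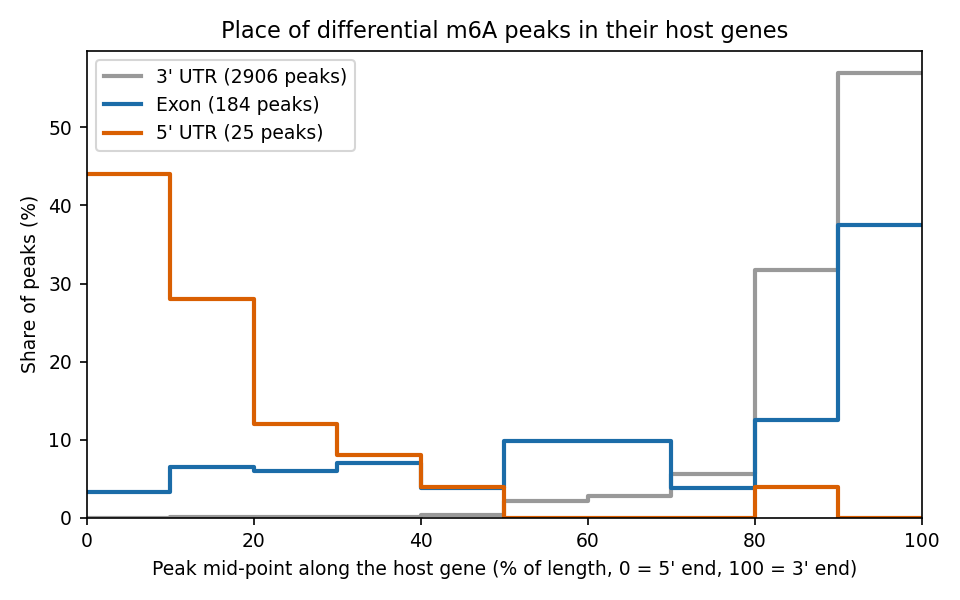
The share of peaks (vertical axis, %) is plotted by the place of the peak mid-point along the host gene in steps of 10% of gene length, from the 5' end at 0 to the 3' end at 100, for 3' UTR (grey), Exon (blue) and 5' UTR (orange) peaks. Exon peaks spread over the whole gene yet have their highest share, 37.5%, in the last step, where 3' UTR peaks reach 57.0%, and 44.0% of 5' UTR peaks lie in the first step.

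Noncoding transcripts were far more frequent among these hosts than among hosts of 3' UTR peaks, and 44 of the 45 peaks in them carried the name Exon. The set was chosen by region name, and a transcript without a coding region has no UTR to be named. The difference in host types thus follows in large part from that choice. The 211 peaks fell in 203 hosts, and 2 peaks lay over no listed gene. By the RefSeq gene type, 160 hosts were protein-coding (78.8%), 20 were long noncoding RNAs, 14 were pseudogenes or transcribed pseudogenes, 6 were other noncoding RNAs and 3 were microRNA genes. Of the 2880 hosts of 3' UTR peaks 99.8% were protein-coding, and of all listed genes 91.9%. Within these peaks the direction of change also differed by host type. In hosts that do not code for protein 29 of the 45 peaks were higher in dcl1 (64.4%, median log2 change 0.47). In protein-coding hosts 67 of 164 were higher (40.9%, median -0.22). The share of 64.4% is near the 60.3% of all peaks in the deposited table. Of those 45 peaks, 18 lay over more than 1 listed gene, so the mark may belong to another transcript.

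The 3 microRNA genes with a peak all rose in input RNA. How many of the 129 listed microRNA genes rose was not counted here. MIR398c, a precursor gene of miR398, which targets copper superoxide dismutase mRNAs, had 4.44, 5.08 and 4.44 FPKM in wild type and 23.5, 25.0 and 20.8 FPKM in dcl1. MIR824, whose microRNA targets the MADS-box gene AGL16, had 1.03, 0.996 and 1.08 FPKM in wild type and 7.49, 8.05 and 8.10 FPKM in dcl1. For both genes every dcl1 library lay several times above every wild-type library. MIR408, whose microRNA targets plantacyanin and laccase mRNAs, had 0.0846, 0.126 and 0.281 FPKM in wild type and 1.46, 3.04 and 1.41 FPKM in dcl1. Its dcl1 libraries were also all above wild type, although replicate 2 stood apart from the others. The wild-type mean of MIR408 was 0.164 FPKM, so it reached the test's minimum mean of 1 FPKM only through dcl1. That minimum favoured a call as a rise. The changes on the log2(FPKM + 1) scale were 2.09 ± 0.09 for MIR398c (limma, adjusted p = 2.47e-05), 2.12 ± 0.08 for MIR824 (adjusted p = 1.49e-05) and 1.31 ± 0.21 for MIR408 (adjusted p = 0.00444, SE, n = 3 per genotype).

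The m6A changes over the 3 microRNA genes did not share a direction. The peak over MIR824, 359 bases in exon 4 of 4 (TAIR10 chr4:12626014-12626372), was higher in dcl1 by a deposited log2 change of 0.90 (FDR 0.000407). The 538-base peak at the 3' end of MIR398c (chr5:4696476-4697013) was higher by 0.39 (FDR 3.02e-06). The 268-base peak at the 5' end of MIR408 (chr2:19319780-19320047) was lower by a log2 change of -0.70 (FDR 0.0155). Over MIR398c and MIR408 a gene of the opposite strand overlaps the peak. The authors' table has no strand column, so it cannot be told from it which of the transcripts carried the mark. On the opposite strand of MIR398c lies NRT2.7, a nitrate transporter, whose 5' UTR peak of 480 bases lies within the MIR398c peak and has nearly the same log2 change of 0.39. Its input level was 5.59, 6.10 and 4.83 FPKM in wild type and 4.37, 4.36 and 4.12 FPKM in dcl1 (log2 change -0.30, limma adjusted p = 0.0508). On the opposite strand of MIR408, AT2G47020 has a 3' UTR peak with 264 bases in common and a log2 change of -0.53. Its input level did not pass the test (log2 change 0.12, limma adjusted p = 0.358).

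Several long noncoding RNAs showed the same arrangement opposite a coding gene. AT5G15845 runs opposite COL1, a CONSTANS-like transcription factor gene, and had the largest called input rise among the hosts on the log2(FPKM + 1) scale, from 0.554, 0.588 and 0.617 FPKM in wild type to 5.29, 5.50 and 7.73 FPKM in dcl1. The groups were far apart, and the log2 change was 2.16 ± 0.14 (SE; limma, adjusted p = 0.000123). With a wild-type mean of 0.586 FPKM, AT5G15845 also reached the test's minimum only through dcl1. The exon peak named for AT5G15845 and the 5' UTR peak named for COL1 share 320 bases, and their deposited log2 changes were 1.28 and 1.30. COL1 had 33.3, 34.0 and 31.2 FPKM in wild type and 28.1, 28.9 and 20.6 FPKM in dcl1, a log2 change of -0.35 that did not pass the test (limma, adjusted p = 0.0761). AT2G33815 runs opposite SPL3, a flowering-promoting transcription factor gene and target of miR156. Its exon peak was higher by 0.88 and the 3' UTR peak of SPL3 by 0.89, with 179 bases in common. SPL3 had 14.2, 10.4 and 14.9 FPKM in wild type and 24.1, 26.7 and 31.4 FPKM in dcl1 (log2 change 1.01 ± 0.15, SE; limma, adjusted p = 0.00305), while AT2G33815 stayed between 0.540 and 1.32 FPKM in all 6 libraries with a mean under the test's minimum. Strand handling is not given in the sources used here, so how input reads were divided between such overlapping genes is not known.

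Such shared stretches were counted for the whole set. Of the 211 peaks, 35 lay over more than 1 listed gene, in 33 cases with a gene on the opposite strand, and 174 lay over 1 gene. Among the deposited peaks there were 14 overlapping pairs with at least 1 of the 211, 7 of them between 2 peaks outside the 3' UTR and 7 with a 3' UTR peak. In all 14 pairs both peaks had the same direction, and as they share bases they are not separate observations. The pair with the lowest p-values of the set was AT3G22121 and CWLP, with 531 bases in common and log2 changes of -0.25 each. Without the peaks over several genes, 75 were higher and 99 lower.

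The lowest deposited p-values belonged to small changes in abundant transcripts. CWLP codes for a proline-rich linker protein between cell wall and plasma membrane, and its peak of 531 bases (chr3:7795692-7796222) was lower in dcl1 (log2 change -0.25) with a deposited p-value of 1.26e-68. Its transcript had 369, 385 and 416 FPKM in wild type and 824, 762 and 880 FPKM in dcl1, higher in every dcl1 library (log2 change 1.07 ± 0.07, SE; limma, adjusted p = 0.000157). AT3G22121 on the opposite strand stayed at 0.201 FPKM or less. The noncoding RNA AT3G12965 was covered from end to end by a 714-base peak that was higher by 0.48 (deposited p-value 1.26e-31). Its level was 82.3, 80.4 and 61.5 FPKM in wild type and 52.0, 44.7 and 48.5 FPKM in dcl1, lower in every dcl1 library (log2 change -0.61 ± 0.12, SE; limma, adjusted p = 0.0098). PRP4, a proline-rich cell wall protein gene, had a peak lower (log2 change -0.17) (deposited p-value 3.16e-24), and its level of 516, 611 and 524 FPKM in wild type was 464, 389 and 385 FPKM in dcl1. That fall of -0.41 ± 0.10 (SE; limma, adjusted p = 0.0183) did not hold without wild-type replicate 2 or dcl1 replicates 2 or 3 (adjusted p 0.0537 to 0.0632). The transcribed pseudogene AT1G79245 had a peak lower (log2 change -0.49) (deposited p-value 5.01e-13) at 38.9 to 46.4 FPKM in wild type and 46.6 to 62.3 FPKM in dcl1, a host difference that did not pass (limma, adjusted p = 0.0901).

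The 10 largest gains among exon peaks lay mostly over weakly expressed or unlisted genes. The largest was a 180-base peak at the 3' end of AT5G28220, annotated to the protein prenylyltransferase superfamily (chr5:10190284-10190463), with a log2 change of 4.07 (FDR 0.00575). This gene was expressed at 6.29, 7.21 and 7.71 FPKM in wild type and 7.21, 6.17 and 6.52 FPKM in dcl1. These groups overlap, and the host did not pass the test (limma, adjusted p = 0.563). Of the 180 bases only 107 lie in AT5G28220, and the authors assigned the peak to AT5G28210, which was not tested. It cannot be told which transcript carried the change. The next gains were 3.72 over AT1G65110, a ubiquitin hydrolase-related gene at no more than 0.260 FPKM in any library, 3.72 over the locus AT1G45545 and 3.20 over the locus AT3G27720, neither with a listed gene under the peak. The pseudogene AT4G10690.1 followed with 2.43. The others of these 10 lay between 1.49 and 1.8 in AT4G04680, CIPK18, AT1G73445.1, AT4G25980 and AT1G71420. CIPK18 codes for a kinase that works with calcineurin B-like calcium sensors, and its transcript was at 0.112, 0.0557 and 0.173 FPKM in wild type and 1.19, 1.85 and 1.28 FPKM in dcl1, under the test's minimum of 1 FPKM on average. A deposited FDR of 0.05 or more was given for 5 of these 10: AT3G27720, AT4G10690.1, CIPK18, AT1G73445.1 and AT4G25980.

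The 10 largest losses among exon peaks included 2 pentatricopeptide repeat genes, a family of RNA-binding proteins that act mostly in organelles. The deepest loss was -3.32 (FDR 0.0468) in a 210-base peak centred on the 3' end of AT2G23940 (chr2:10185229-10185438), which codes for a protein of unknown function. Its input level was 20.0, 20.9 and 20.9 FPKM in wild type and 19.3, 18.0 and 18.7 FPKM in dcl1, slightly lower in dcl1 without passing the test (limma, adjusted p = 0.149). Of the 210 bases only 103 lie in AT2G23940, and the authors assigned the peak to AT2G23945, which was not tested. Here too it cannot be told which transcript carried the change. The pentatricopeptide repeat genes were AT3G16610, with -3.16 (FDR 0.00112) in a peak at its middle, and AT1G77010, with -2.04 (FDR 0.104) at its 3' end. Both were weakly expressed, at 0.398 FPKM or less in each library. CAD2, a cinnamyl alcohol dehydrogenase homolog, had -2.83 (FDR 0.102) and rose from between 0.259 and 0.392 FPKM in wild type to between 1.02 and 1.5 FPKM in dcl1, though untested because of its low mean.

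A further 3 losses of the 10 lay in hosts whose input rose. AT1G24996 had a peak lower (log2 change -2.05) (FDR 1.58e-07) and 109, 112 and 113 FPKM in wild type against 176, 194 and 224 FPKM in dcl1 (log2 change 0.82 ± 0.09, SE; limma, adjusted p = 0.000923). It overlaps LpxC3, which belongs to a family of near-identical tandem copies, so how reads were divided among them is uncertain. AT5G18360, annotated to the TIR-NBS-LRR class of disease resistance proteins, had a peak lower (log2 change -1.60) (FDR 0.0049) and 0.828, 0.680 and 1.20 FPKM in wild type against 1.68, 1.73 and 1.90 FPKM in dcl1. Its rise of 0.55 ± 0.13 (SE; limma, adjusted p = 0.0181) did not pass without wild-type replicates 1 or 2 or dcl1 replicate 3 (adjusted p 0.0573 to 0.0619). With a wild-type mean of 0.902 FPKM, AT5G18360 reached the test's minimum only through dcl1. The long noncoding RNA AT1G20515 had a peak lower (log2 change -2.08) (FDR 0.00132), and its rise of 0.56 (limma, adjusted p = 0.0413) did not pass in 5 of the 6 fits that left out a library (adjusted p 0.0773 to 0.107), nor with median-ratio scaling, quantile normalization, no minimum or the replicate block (0.05003 to 0.0754). The other losses of the 10 were -1.72 in AT3G09080, -1.53 in AT4G22020 and -1.44 in AT1G64320, all in hosts under 1 FPKM.

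In 5' UTRs the largest gains went with hosts that were level or lower in dcl1. The 208-base peak at the 5' end of AT4G16563, an aspartyl protease family gene, was higher by 2.29 (FDR 0.0186), with 1.56, 0.866 and 1.23 FPKM in wild type and 0.353, 0.753 and 0.502 FPKM in dcl1, a host under the test's minimum. AT1G69523, an S-adenosylmethionine-dependent methyltransferase family gene, was higher by 1.21 and had 10.3 ± 1.00 FPKM in wild type and 10.2 ± 1.24 FPKM in dcl1 (SD, n = 3). MES7, a methyl esterase gene, was higher by 1.03 (FDR 0.00355) over 266 bases. Its transcript fell from 2.99, 3.03 and 2.33 FPKM to 1.26, 1.40 and 1.38 FPKM, with all dcl1 libraries below wild type (log2 change -0.68 ± 0.11, SE; limma, adjusted p = 0.00436). UGT74D1, a glucosyltransferase that acts on auxins, was higher by 0.90 (FDR 1.74e-07) over 209 bases. Its level fell from 21.0, 18.3 and 18.0 FPKM to 14.5, 15.9 and 13.7 FPKM (log2 change -0.36 ± 0.09, SE; limma, adjusted p = 0.0226), a call that was lost without wild-type replicates 1 or 2 or dcl1 replicates 1 or 3 (adjusted p 0.0529 to 0.0780).

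Losses in 5' UTRs were fewer, with a median log2 change of -0.45 beside 0.48 for the gains. They were led by AT3G61410 at -1.5 (FDR 0.103), a gene at no more than 0.214 FPKM in any library. AT5G56140, a KH-domain RNA-binding protein gene, followed at -0.74 (FDR 0.0417), with 19.7 ± 2.06 FPKM in wild type and 24.2 ± 1.66 FPKM in dcl1 (SD, n = 3; limma, adjusted p = 0.0597). The long noncoding RNA AT2G44798 had -0.69, AT1G72270 -0.54 and SCRL7 -0.37. SCRL7, which belongs to a family of small secreted SCR-like proteins, rose by 0.43 (limma, adjusted p = 0.0355) in a call lost when any library but dcl1 replicate 2 was left out (adjusted p 0.0526 to 0.109), with quantile normalization (0.0817) or with no minimum (0.0595). It overlaps AT1G60990 on the opposite strand.

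Across all hosts, input changes were about as frequent as among all tested genes. Of the 203 hosts, 165 passed the minimum of 1 FPKM on average and were tested, and 38 were not. Of the tested hosts 30 rose (18.2%), beside 17.8% of all 17925 tested genes, and 21 fell (12.7%), beside 12.8% of all tested genes. After quantile normalization between the libraries, 21 hosts rose and 34 fell. That normalization moved the median log2 change of all tested genes by -0.087. The share of all tested genes called under it was not counted here, so these 2 counts have no background beside them. The median log2 change was 0.021 over tested hosts and 0.032 over all tested genes. Hosts of exon peaks gave 28 rises and 15 falls of 146, and hosts of 5' UTR peaks 2 rises and 6 falls of 20. Of the 43 hosts that do not code for protein 34 were tested, with 12 rises and 4 falls. Leaving out 1 library at a time kept 23 of the 51 calls in every fit, 13 rises and 10 falls.

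The largest rises and falls were taken only from called hosts whose libraries did not overlap between the genotypes. Among the 5 largest such host rises on the log2(FPKM + 1) scale, beside the microRNA genes and AT5G15845, was a pseudogene. This pseudogene, AT4G28900.1, had 1.14, 1.03 and 1.17 FPKM in wild type and 5.70, 8.27 and 6.58 FPKM in dcl1, with no overlap (log2 change 1.88 ± 0.13, SE; limma, adjusted p = 0.000156). Its 240-base peak was lower in dcl1 (log2 change -0.66) (FDR 0.0234). The falls were led by AT5G66740, with 5.41, 5.12 and 3.36 FPKM in wild type and 1.47, 2.04 and 1.01 FPKM in dcl1 (log2 change -1.17 ± 0.20, SE; limma, adjusted p = 0.00527), whose 89-base peak at the 3' end was also lower (log2 change -1.08) (FDR 0.0776). WRKY50, a transcription factor gene of salicylate and jasmonate defence, had 4.97, 2.13 and 7.43 FPKM in wild type and 1.86, 1.33 and 1.5 FPKM in dcl1. The wild-type libraries ranged widely, and the fall of -1.08 ± 0.32 (SE; limma, adjusted p = 0.0412) was lost without any library but wild-type replicate 2 (adjusted p 0.0691 to 0.118), with no minimum (0.0737) and with a pseudocount of 5 FPKM (0.0518). ABCC13, an ABC transporter gene, fell from 3.03, 3.33 and 3.12 FPKM to 1.45, 1.41 and 1.32 FPKM (log2 change -0.80 ± 0.09, SE; limma, adjusted p = 0.00106), and its 270-base peak in exon 33 of 33 was higher by 0.89 (FDR 5.25e-07). The long noncoding RNA AT1G26208 fell from 11.5, 12.4 and 9.71 FPKM to 7.19, 6.69 and 6.79 FPKM (log2 change -0.62 ± 0.10, SE; limma, adjusted p = 0.00379). SOFL1 on the opposite strand, of a family of nuclear proteins tied to cytokinin, fell as well (log2 change -0.56 ± 0.11, SE; limma, adjusted p = 0.00932), and the overlapping peaks of both were higher, by 0.55 and 0.38.

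**Figure D4:**
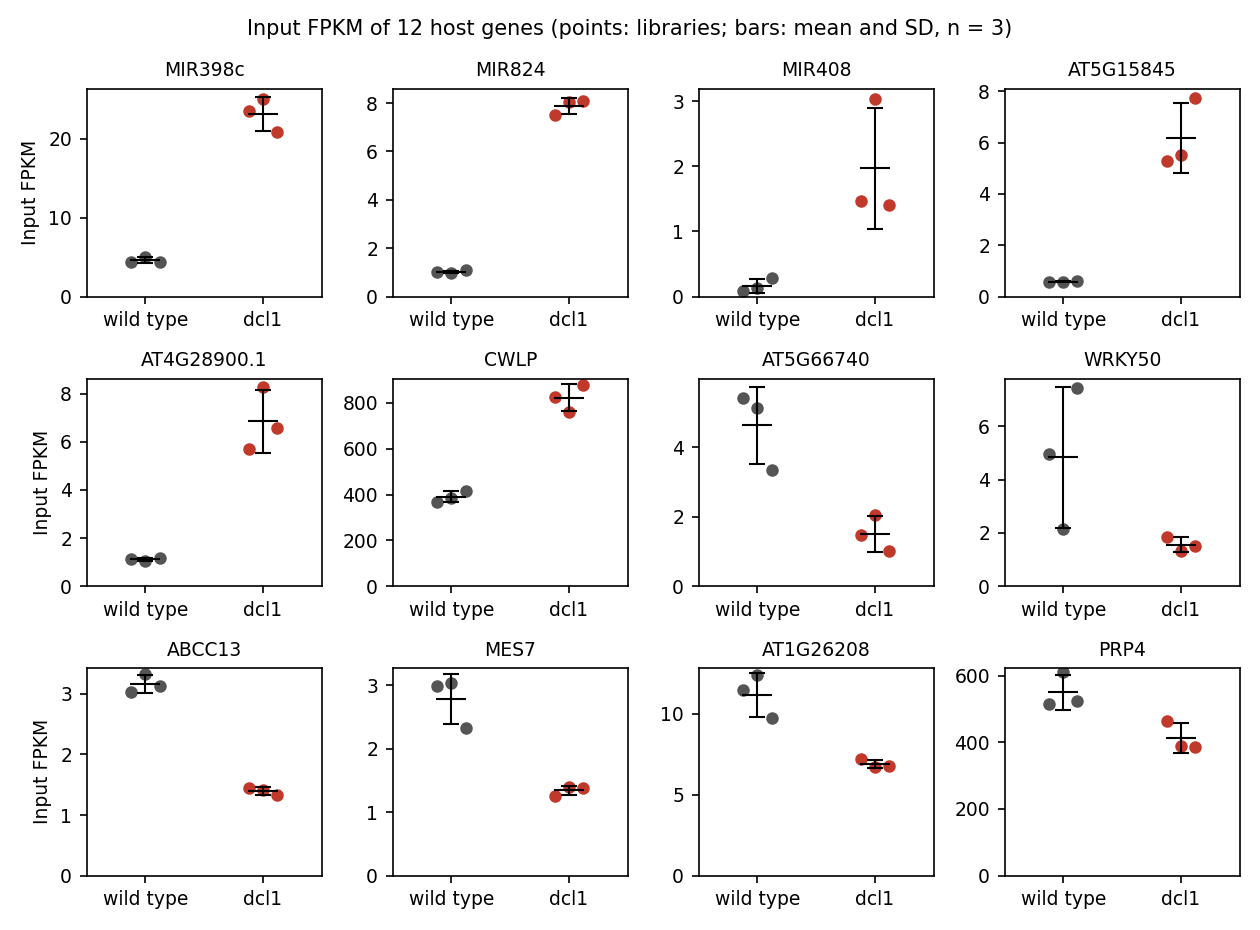
Input FPKM (vertical axes, each starting at 0) is shown for 12 host genes in the 3 wild-type (grey) and 3 dcl1 (red) libraries, with the mean and SD as bars. The genotypes overlap in none of the 12 panels, which was a condition for choosing all of these genes but CWLP and PRP4. In WRKY50 the wild-type libraries spread from 2.13 to 7.43 FPKM.

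Peak and input values were set side by side for the 170 peaks with a tested host. They come from the same plants, and the sources used here do not say if the deposited m6A change is relative to input, so both may rest on the same input libraries and no test was made. Of the 78 peaks that were higher in dcl1, 10 had a host that rose, 16 a host that fell and 52 a host that was not called. Of the 92 that were lower, 21 had a host that rose, 5 a host that fell and 66 a host that was not called. For 3' UTR peaks the higher class held 150 hosts that rose and 421 that fell of 1763, and the lower class 376 that rose and 31 that fell of 1106. CWLP, MIR408 and AT4G28900.1 are examples of a lower peak in a host that rose, and MES7 and ABCC13 of a higher peak in a host that fell. MIR824, MIR398c and AT5G15845 were higher in both measures, and AT5G66740 was lower in both.

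Few genes had more than 1 differential peak, and their peaks could differ in direction. There were 6 hosts with 2 peaks outside the 3' UTR. In LINC1, which codes for a lamina-like nuclear protein, a 420-base peak was higher by 0.32 (FDR 0.00977) and a 330-base peak was lower (log2 change -0.40) (FDR 0.00891), at a host level of 12.6 to 15.3 FPKM over all 6 libraries. PLDEPSILON, a phospholipase D gene, gave 0.69 and -0.75, although its transcript was at 0.0851 FPKM or less in each library. The other 4 had both peaks in the same direction: EIF3A, a subunit of translation initiation factor 3, with -0.09 and -0.23, AT5G19090 with -0.28 and -0.22, the pseudogene AT4G10690.1 with 0.63 and 2.43, and AT2G44798, whose peaks overlap, with -0.59 and -0.69.

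A 3' UTR peak was also present in 10 of the hosts, which allowed 11 comparisons within a gene, 5 in the same direction and 6 in opposite directions. FCA, an RNA-binding protein of the autonomous flowering pathway, had a 5' UTR peak higher by 0.54 (FDR 0.00617) and a 3' UTR peak higher by 0.28, 5566 bases apart on the genome. TAF15b, a TBP-associated factor, had both lower (log2 change -0.34) in the 5' UTR and -0.12 in the 3' UTR. AT1G69523 had 1.21 and 0.55, AT2G19280 0.97 and 0.31 in overlapping peaks, and NACA5, of the nascent polypeptide-associated complex, 0.13 and 0.18. In EIF3A both exon peaks were lower and the 3' UTR peak was higher by 0.11. AT5G66540 (-0.23 and 0.16) and AT1G29470 (-0.15 and 0.37) also had a lower exon and a higher 3' UTR peak. The bromodomain gene AT1G20670 (0.48 and -0.29) and PSL4, the beta subunit of glucosidase II (0.22 and -0.14), had the reverse. Both peaks had a deposited FDR under 0.05 only in FCA, TAF15b, AT1G69523, PSL4 and the EIF3A pair with the exon peak of -0.23. In the other pairs a peak had an FDR from 0.0501 (3' UTR of AT1G20670) to 0.131 (3' UTR of AT2G19280). The same 3' UTR peak of EIF3A stands in both of its comparisons.

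The gene to which the authors assigned a peak was not always the one under it. For 63 of the 209 peaks with a host (30.1%) the assigned gene was another, 62 of them exon peaks, and in 57 cases the assigned gene did not touch the peak. The same held for 43.9% of 3' UTR peaks. Where both genes were tested, in 31 cases, the input log2 changes had opposite signs in 8 and the call differed in 10. With the assigned gene as host, 20 rose and 23 fell of 145 tested.

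By the authors' gene descriptions and ontology terms, 25 of the 203 hosts were linked to the chloroplast or photosynthesis (12.3%), beside 27.7% of hosts of 3' UTR peaks and 23.3% of all tested genes. Transport terms stood at 3.94% beside 11.6% and 9.60%, and ribosome terms at 1 host (0.493%) beside 6.15% and 3.46%. These sets differ in make-up: of the 203 hosts, 43 do not code for protein and 38 were under the test's minimum. Hosts of 3' UTR peaks were 99.8% protein-coding, and all tested genes reached the minimum. How far this lowers the shares was not tested. RNA binding or splicing was listed for 16 hosts (7.88%, beside 11.9% and 8.41%), whose peaks were lower in 13 cases and higher in 4, beside 113 lower and 98 higher in the whole set. Of these 16 hosts 1 rose and 1 fell, beside 172 and 230 of the 1507 tested genes with such terms and 17.8% and 12.8% of all tested genes. Kinases (12 hosts, 5.91%) and defence (12 hosts, 5.91%) stood near the other sets, at 6.29% and 6.87% for kinases and 4.90% and 4.83% for defence. No test was made.

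Of 25 listed genes of the m6A machinery, 1 had a peak outside the 3' UTR. This was AT5G53440, known as HIZ2, a partner of HAKAI in the writer complex, whose 150-base exon peak was lower in dcl1 (log2 change -0.43) (FDR 0.0145). Its input level was 9.52, 9.85 and 10.2 FPKM in wild type and 8.56, 8.22 and 8.93 FPKM in dcl1, lower in every dcl1 library without passing the test (log2 change -0.18 ± 0.07, SE; limma, adjusted p = 0.0892). Of the 23 machinery genes tested, 2 rose and 3 fell, beside 17.8% and 12.8% of all tested genes, with a median log2 change of -0.06 beside 0.032 over all. HIZ1 (0.38, limma adjusted p = 0.0361) and the YTH reader ECT9 (0.31, limma adjusted p = 0.0485) rose, and the demethylase family genes ALKBH10B (-0.46, limma adjusted p = 0.0134) and ALKBH9C (-0.40, limma adjusted p = 0.014) and the YTH reader ECT7 (-0.30, limma adjusted p = 0.0245) fell. Of these calls only that of ALKBH9C held in every fit that left out a library.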

How the data were processed

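Input RNA-seq and m6A immunoprecipitate libraries were made from 3 replicates per genotype. The submitters' processing notes name TAIR10 and the tools HISAT2, fastp, HOMER, ChIPseeker, edgeR and StringTie, with no versions or roles given. The authors deposited FPKM of 24730 genes in the 6 input libraries, so the sequencing depth is unknown and no counting intervals are given. Their peak table holds, per the file headers, a log2 change of m6A, a p-value, a score (log10 of the FDR), a region and an assigned gene, beside the fold ratio of that gene's FPKM. How the m6A change was scaled is not stated, and no value of a single immunoprecipitate library was used.

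The FDR was computed back from the score, which the authors deposited. Deposited peak starts lay 1 base before gene starts (1019 of 2565 peaks over 1 gene) and never at them (0), so 1 was added; coordinates are 1-based. The host is the listed gene sharing most bases; ties went to the gene in the peak's annotation, then to the assigned gene. Gene types and symbols come from a RefSeq table (TAIR10.1), which matched 24354 genes and all 203 hosts.

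Hosts were compared with limma 3.58.1 in R 4.3.3 (eBayes with trend, two-sided) on log2(FPKM + 1), with genes averaging at least 1 FPKM, Benjamini-Hochberg adjustment over 17925 genes and a threshold of 0.05. A gene could reach the minimum through 1 genotype alone, which favours a call in that direction. The pseudocount makes changes of low genes smaller than the ratio of means. Strand handling is not given in the sources used here, so how reads were divided between overlapping genes is not known.

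The peaks, gene lists and rules were chosen with earlier results of these data known. Named are the 10 largest gains and losses among exon peaks and 5 each in 5' UTRs, the 3 widest and 3 narrowest, the 5 lowest p-values, the 5 largest rises and falls among called hosts without overlap, hosts with further peaks and called m6A machinery genes; SPL3, LpxC3, AT2G47020, SOFL1, NRT2.7 and HIZ2 were added for their overlap or list. Sequence motifs under the peaks were not analysed here. Alternatives were other pseudocounts, minimums and scalings, no trend, a replicate block, each library left out, other rules for hosts and peaks and, chosen after seeing the data, only peaks over 1 gene.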

Additional observations from a re-analysis of the deposited data

How the results depend on the processing

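No called gene changed sign under another setting. The median host gene log2 change, which lies near 0, changed sign under 4 settings. It was 0.021 and became -0.0059 with median-ratio scaling, -0.011 with a minimum of 5 FPKM, 0.027 with no minimum and with a pseudocount of 0.1 FPKM, 0.012 with a pseudocount of 5 FPKM, -0.074 with quantile normalization (which moved the median of all genes by -0.087) and -0.014 with the assigned gene as host. It ran from 0.0051 to 0.039 with each library left out.

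Hosts that rose (30) numbered 16 with a minimum of 5 FPKM and 15 to 30 with each library left out, and hosts that fell (21) numbered 34 with quantile normalization and 11 to 18 with each library left out. The minimum of 5 FPKM left 95 hosts tested instead of 165, so its counts are out of fewer hosts. The fits with a library left out have fewer samples. The share of all tested genes called under these settings was not counted here. The lowest count of rises came without dcl1 replicate 3 (15) and that of falls without wild-type replicate 1 (11).

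Peaks higher in hosts that rose (10) numbered 3 with a minimum of 5 FPKM, 4 with the assigned gene, 5 at a deposited FDR under 0.05, 1 at a 2-fold change and 5 to 11 with each library left out. Peaks higher in hosts that fell (16) numbered 1 at a 2-fold change and 7 to 13 with each library left out. Peaks lower in hosts that rose (21) numbered 13 with quantile normalization, 3 at a 2-fold change and 10 to 20 with each library left out. Peaks lower in hosts that fell (5) numbered 8 with median-ratio scaling, 3 with a minimum of 5 FPKM, 13 with quantile normalization, 8 with the assigned gene, 2 at an FDR under 0.05, 1 at a 2-fold change and 4 to 5 with each library left out. Peaks higher in dcl1 (98) numbered 58 at an FDR under 0.05 and 16 at a 2-fold change, and those lower (113) numbered 74 and 16. The cause was not tested.

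With the replicate number as a block, 26 hosts rose and 19 fell, 24 and 18 of them shared with the fit without the block. Deviations from the genotype means of same-numbered libraries correlated at 0.085, 0.061 and 0.15, and dcl1 replicate 1 correlated best with wild-type replicate 2, so the numbers were not taken as pairs. Values over all settings were compared for the tested named genes, m6A machinery genes, called hosts and hosts that do not code for protein. Of these values, 1270 kept their side of the threshold, 160 lost a call and 14 gained one. FPKM give no depth, so whether hosts under 1 FPKM could be tested with more reads is not known.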
